A study of Homo sapiens with 9 samples.

Results

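The 10 genes described here are RARRES1, PLAAT3, RARA, RARB, RARG, RXRA, CRABP2, DHRS3, DHRS9 and RDH10. Every probe set of the array whose annotation names only that gene was used, which gave 29 probe sets of 41091 with exactly 1 gene, and 10 genes of 19775. The list was proposed with results of these arrays known: RARRES1 and PLAAT3 were chosen by their higher log2 level after Nrf2 siRNA in these arrays, so their values are given as a description, with no test. The record names no measured value for the choice of the other 8 genes, which hold 24 of the 29 probe sets; their p-values come from 1 fit over all 41091 probe sets.

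Vitamin A reaches genes through a short chain of proteins. Retinol is taken up and oxidised to retinal by retinol dehydrogenases such as RDH10, retinal is turned back into retinol by reductases such as DHRS3, and retinal dehydrogenases of the ALDH1A family make retinoic acid from retinal. CRABP2 carries retinoic acid to the nucleus, where the receptors RARA, RARB and RARG bind DNA as pairs with RXRA or its relatives, and the CYP26 enzymes break retinoic acid down. RARRES1 and PLAAT3 are genes whose names or families are tied to this hormone: RARRES1 encodes a membrane protein first found as a transcript induced by a synthetic retinoid, and PLAAT3 a phospholipase and acyltransferase related to the retinoid-responsive gene PLAAT4.

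The cells were A549, an established human lung adenocarcinoma line that carries a mutation of KEAP1, the inhibitor of the transcription factor NRF2 (gene NFE2L2). One group received an siRNA against Nrf2 (25 nM), another a non-targeting siRNA (NS siRNA, 25 nM), and the third, mock, the lipid transfection reagent with no siRNA. RNA was taken from all 3 groups 96 h after transfection, with 3 biological replicates and 3 arrays in each. The labels name no added retinoid, and a single Nrf2 siRNA group with no rescue, so NRF2 loss and an off-target effect of that siRNA cannot be told apart.

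Levels are log2 expression values, so a difference of 1 is 2-fold. Array medians lay between 7.51 and 7.57, the median standard deviation between replicates was 0.0732, and with 3 arrays a group precision is limited. By its brightest probe set, the siRNA target NFE2L2 stood at 10.25 ± 0.11 (SD, n = 3) in Nrf2 siRNA. It stood at 12.09 ± 0.06 in NS siRNA and 11.99 ± 0.08 in mock. This left 27.9% of the NS siRNA level (limma adjusted p = 3.09e-10). A dimmer probe set left 45.2% (adjusted p = 6.83e-08). The dimmest, at 92.9%, did not pass against NS siRNA or mock (adjusted p = 0.172 and 0.456). Of 5 epithelial marker genes 0 lay below the median level of all probe sets, and the keratins KRT8 and KRT18 averaged 14.29 and 14.94 over the 9 arrays. Of the markers of cells that the culture should lack, 2 of 4 immune, 2 of 5 endothelial and 1 of 5 fibroblast genes lay below that median. The mean over the epithelial list was 12.28 to 12.43 in Nrf2 siRNA arrays, 11.91 to 11.94 in NS siRNA arrays and 11.46 to 11.52 in mock arrays. That over the fibroblast list was 8.70 to 8.75, 8.15 to 8.21 and 8.41 to 8.55 in the same groups. Of the fibroblast genes, COL1A1 and COL3A1 rose by 1.12 and 1.73 against NS siRNA, while COL1A2, DCN and PDGFRB did not pass. Of the epithelial genes, KRT19, EPCAM and CDH1 rose by 1.15, 0.48 and 0.48 against NS siRNA, while KRT8 and KRT18 did not pass. Against mock KRT19, EPCAM, CDH1 and KRT8 rose by 1.95, 1.20, 0.94 and 0.205, and KRT18 did not pass. The immune list averaged 7.47 to 7.57, 7.26 to 7.35 and 7.19 to 7.29 in the same groups. There CD14 rose by 0.96 against NS siRNA and 0.99 against mock, while PTPRC, CD3E and LYZ passed against neither. The endothelial list averaged 7.28 to 7.45, 7.37 to 7.44 and 7.31 to 7.40. The part of these shifts in the values below was not tested. In these bulk samples fewer cells of a kind and less RNA per cell cannot be told apart.

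**Figure D1:**
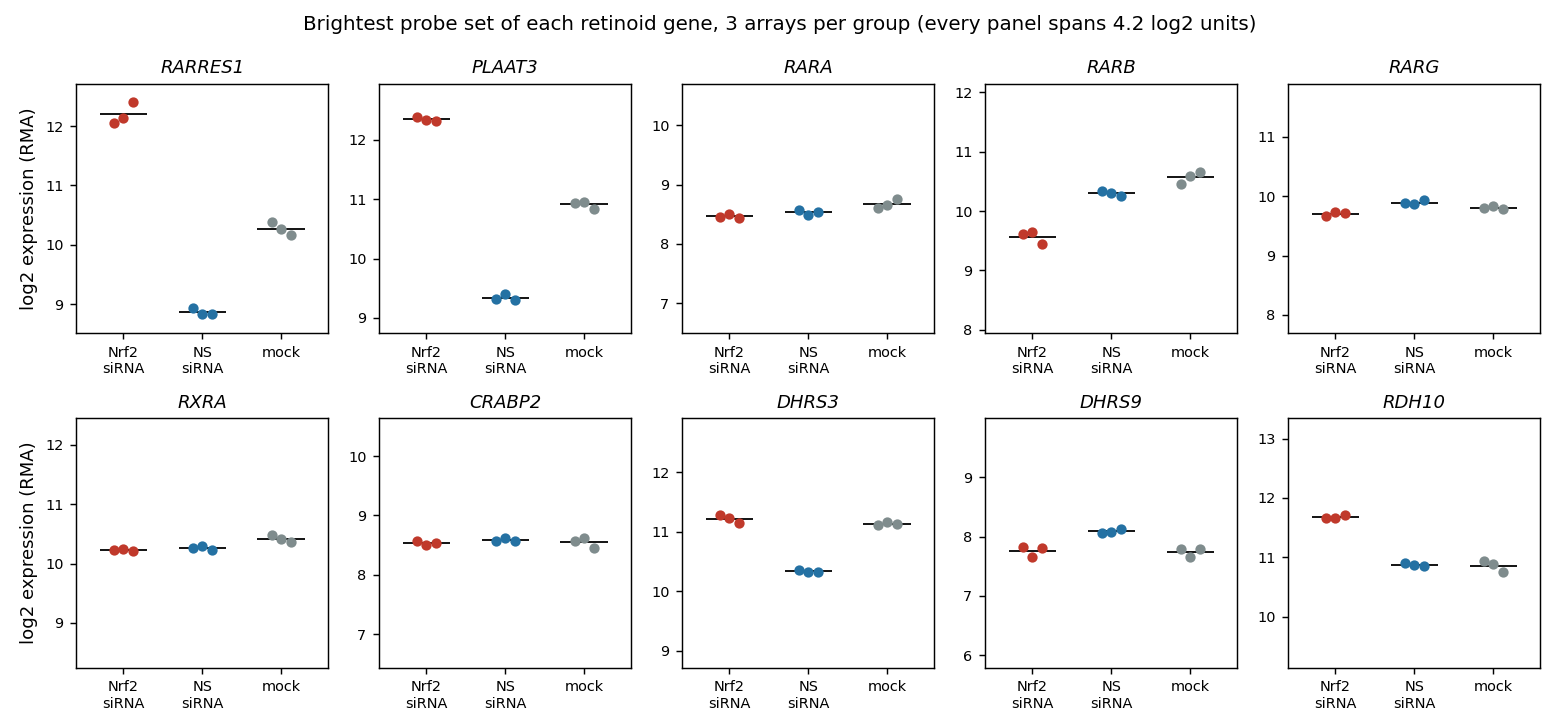
Log2 expression of the brightest probe set of each of the 10 retinoid genes (y axis; every panel spans the same range) in Nrf2 siRNA, NS siRNA and mock; points are arrays and lines are means of 3. RARRES1 and PLAAT3 are highest in Nrf2 siRNA and lowest in NS siRNA, RARB is lowest in Nrf2 siRNA, RDH10 is higher in Nrf2 siRNA than in both controls, and DHRS3 is low in NS siRNA only.

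RARRES1, a latexin relative, was measured by 3 probe sets. The brightest read 12.06, 12.14 and 12.40 in Nrf2 siRNA, against 8.94, 8.83 and 8.84 in NS siRNA and 10.38, 10.27 and 10.16 in mock. The 3 groups did not overlap, and mock lay between the other two. Nrf2 siRNA was 3.33 ± 0.08 (SE) above NS siRNA, or 10.1-fold, and 1.93 ± 0.08 above mock, or 3.82-fold. NS siRNA was itself 1.40 ± 0.08 below mock (-1.40), at 37.9% of the mock level. The other 2 probe sets gave 3.36 and 3.14 against NS siRNA, 1.93 and 1.99 against mock, and -1.43 and -1.15 for NS siRNA against mock. The size of the difference thus depended on the control. Its sign was the same in all 3 probe sets, but RARRES1 was chosen by this rise, so the shared sign tests nothing.

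PLAAT3 was measured by 2 probe sets that did not give the same picture. The brighter read 12.39, 12.33 and 12.32 in Nrf2 siRNA, against 9.32, 9.40 and 9.30 in NS siRNA and 10.94, 10.96 and 10.83 in mock. Its groups did not overlap and had the same order as those of RARRES1. Nrf2 siRNA was 3.01 ± 0.05 (SE) above NS siRNA, or 8.04-fold, and 1.44 ± 0.05 above mock, or 2.70-fold, while NS siRNA stood at 33.6% of mock. The dimmer read 9.43, 9.35 and 9.40 in Nrf2 siRNA, against 8.08, 8.22 and 8.27 in NS siRNA and 8.30, 8.11 and 8.31 in mock. There the 2 controls overlapped, with a difference of -0.05 ± 0.07, and Nrf2 siRNA was 1.20 ± 0.07 above NS siRNA and 1.15 ± 0.07 above mock. The annotation used here does not say which transcript forms the 2 probe sets read.

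By brightest probe set, RARRES1 ranked 2 and PLAAT3 10 from the highest of 19775 genes against NS siRNA, and 34 and 87 against mock. RARRES1 and PLAAT3 were chosen by their higher level after Nrf2 siRNA, so high ranks follow from the choice and test nothing. From the lowest in NS siRNA against mock, PLAAT3 ranked 20 and RARRES1 40. The choice drew on these same arrays, so these ranks are a description too. The 5 genes whose 9 values followed those of RARRES1 most closely were ADD3 (Pearson r = 0.9972), UBR2 (0.9969), ANXA4 (0.9967), LTBP1 (0.9966) and IRS1 (0.9964), and PLAAT3 followed it with r = 0.9892, at place 80. The 9 arrays form 3 groups, so each r mainly compares 3 group means and has no test.

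**Figure D2:**
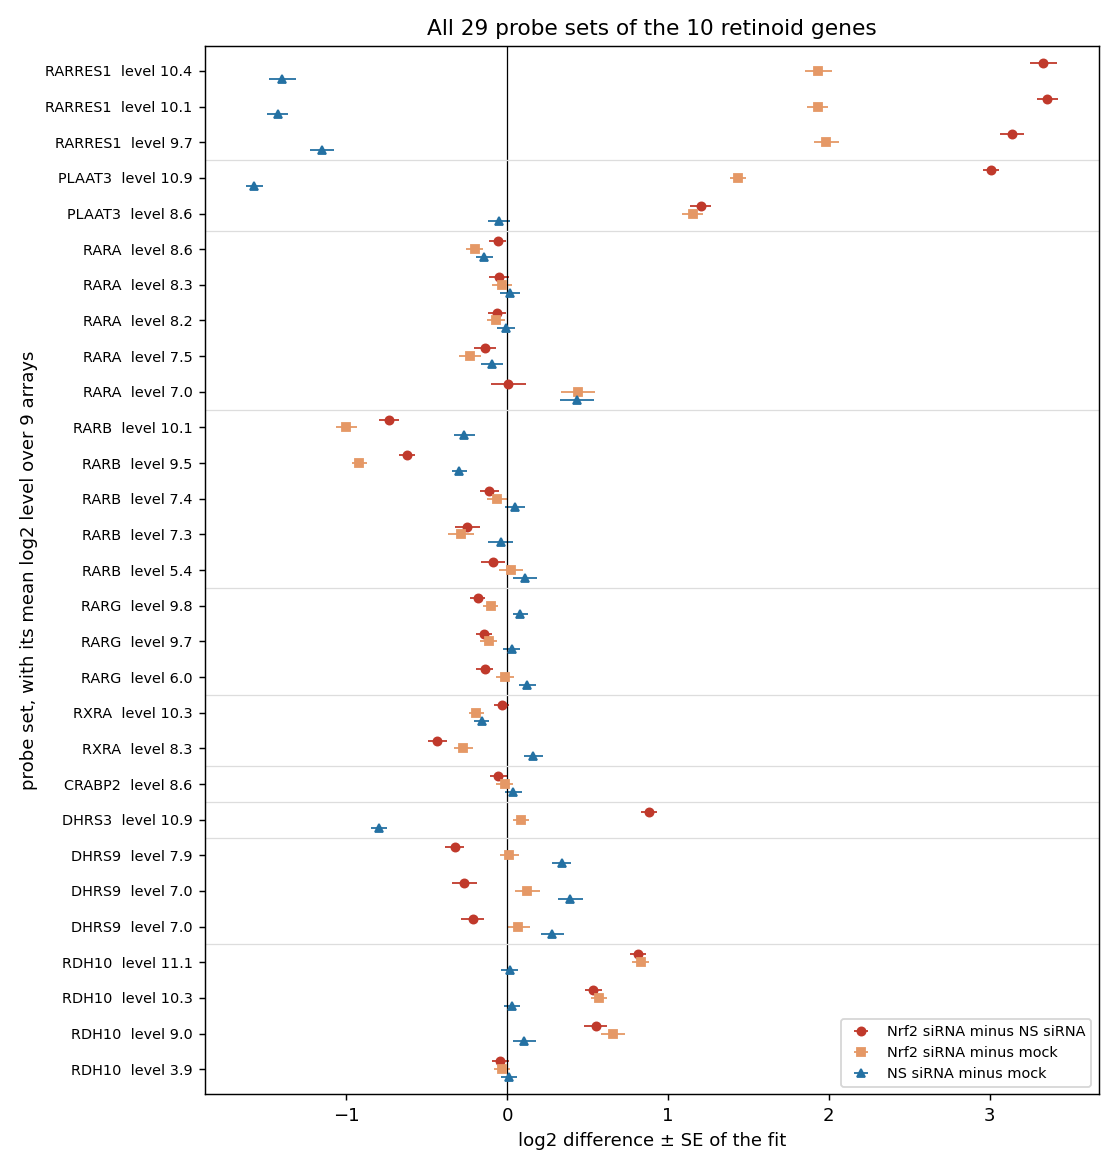
Log2 difference with the standard error of the fit (x axis) for all 29 probe sets (y axis, each with its mean log2 level over the 9 arrays), for Nrf2 siRNA minus NS siRNA, Nrf2 siRNA minus mock and NS siRNA minus mock. All 3 RARRES1 probe sets lie together, the PLAAT3 probe sets differ in NS siRNA minus mock (-1.57 and -0.05), and the 2 brightest RARB probe sets lie left of 0 in every comparison.

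Because the brightest probe sets of RARRES1 and PLAAT3 had the same order of groups, the 250 bases before the start of RARRES1 and before the first of 2 listed starts of PLAAT3 are shown, from RefSeq sequences of GRCh38.p14. They were searched on both strands for the nuclear receptor core site AGGTCA, for its direct repeats AGGTCANNAGGTCA and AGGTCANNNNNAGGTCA, for the looser repeat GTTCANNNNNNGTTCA, which is the form of the classical retinoic acid response element, and for the antioxidant response element core TGACNNNGC. Capitals mark a match; the core site can be part of either AGGTCA repeat.
RARRES1, chr3:158732458-158732707, minus strand: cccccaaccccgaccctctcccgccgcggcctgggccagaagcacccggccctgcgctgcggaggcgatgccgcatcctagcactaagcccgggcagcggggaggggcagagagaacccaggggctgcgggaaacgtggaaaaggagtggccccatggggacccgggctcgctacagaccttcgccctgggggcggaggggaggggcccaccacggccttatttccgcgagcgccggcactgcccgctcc
PLAAT3, chr11:63614438-63614687, minus strand: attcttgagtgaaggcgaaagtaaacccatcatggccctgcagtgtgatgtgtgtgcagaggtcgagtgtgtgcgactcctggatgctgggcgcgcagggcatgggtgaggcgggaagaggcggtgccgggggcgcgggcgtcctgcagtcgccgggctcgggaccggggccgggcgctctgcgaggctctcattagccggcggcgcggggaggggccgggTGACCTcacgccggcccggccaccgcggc
The RARRES1 stretch held none of the 5 motifs. The PLAAT3 stretch held 1 core site, on the opposite strand. A core site on either strand occurred in 13.8% of all 34943 listed promoter windows of 300 bases. The antioxidant response element core occurred in 13.3% of those windows and in neither stretch. In windows of other members it occurred at a listed start of RARB, RARG, RXRA and DHRS9, and at none of RARA, CRABP2 or DHRS3. Both stretches were rich in G and C, at 73.2% and 71.2%, where the median of the 250 bases over all windows was 58.0% (quartiles 46.4% and 68.0%). A match is a description of letters, and a missing match says only that these letters are not in this stretch.

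The receptors differed among themselves, and RARB, the receptor gene that retinoic acid itself induces in many cells, had the largest differences. Its brightest probe set read 9.61, 9.65 and 9.44 in Nrf2 siRNA, against 10.33, 10.30 and 10.26 in NS siRNA and 10.46, 10.59 and 10.65 in mock. All 3 Nrf2 siRNA arrays lay below all 6 controls, and NS siRNA lay below mock. RARB fell by 0.73 ± 0.07 (SE) against NS siRNA (limma adjusted p = 1.32e-06) and by 1.00 ± 0.07 against mock (adjusted p = 1.67e-07), the first being 60.1% of the NS siRNA level. NS siRNA was lower than mock by a smaller amount (-0.27 ± 0.07, adjusted p = 0.00842). The next brightest probe set read 9.01, 8.98 and 9.0 in Nrf2 siRNA, against 9.65, 9.60 and 9.60 in NS siRNA and 9.96, 9.94 and 9.84 in mock, again with no overlap. It fell by 0.62 ± 0.05 against NS siRNA and by 0.92 ± 0.05 against mock (adjusted p = 3.78e-07 and 2.35e-08).

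The 3 dimmer RARB probe sets averaged 5.42 to 7.40, below the median level, and showed less. One of them fell by 0.25 ± 0.08 against NS siRNA and 0.29 ± 0.08 against mock (adjusted p = 0.0261 and 0.0166). The other two did not pass against either control, with differences of -0.11 ± 0.06 and -0.09 ± 0.07 against NS siRNA. Whether dim probe sets read RARB at all has no background test in these values. By brightest probe set RARB ranked 343 from the lowest of 19775 genes against NS siRNA and 82 against mock.

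RARB has 4 starts in the RefSeq table, and 1 of them carries the looser retinoic acid repeat close to the start. That stretch is shown with the one of CYP26A1, the retinoic acid hydroxylase, where the same repeat stands on the opposite strand.
RARB, chr3:25428013-25428262, plus strand: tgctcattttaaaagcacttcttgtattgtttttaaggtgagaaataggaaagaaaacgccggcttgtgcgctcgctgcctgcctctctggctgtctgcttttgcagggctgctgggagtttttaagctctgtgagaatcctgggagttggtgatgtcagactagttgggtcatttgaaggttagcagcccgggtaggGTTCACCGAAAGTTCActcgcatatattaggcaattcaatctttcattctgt
CYP26A1, chr10:93073643-93073892, plus strand: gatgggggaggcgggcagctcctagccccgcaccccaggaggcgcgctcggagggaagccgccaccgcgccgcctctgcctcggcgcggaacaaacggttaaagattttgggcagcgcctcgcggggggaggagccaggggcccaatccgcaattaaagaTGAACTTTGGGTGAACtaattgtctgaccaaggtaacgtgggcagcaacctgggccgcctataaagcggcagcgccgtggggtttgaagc
The repeat, in capitals, begins 52 bases before the RARB start and 90 bases before this start of CYP26A1, which has 2 in the table. It occurred in 20 of 34943 windows, or 0.0572%. This form was spelled out after the promoters had been seen, so the share is a description and not a test. Each of the stricter repeats occurred in 2 windows or fewer, and in none of the 9 genes with a window; RDH10 had none in the table. The arrays do not say which start was used. Whether the repeat had a part in the values of either gene was not tested.

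RARA, the broadly expressed receptor, had 5 probe sets, with differences from NS siRNA between -0.14 and 0.01 that did not pass in limma. The brightest read 8.46, 8.51 and 8.44 in Nrf2 siRNA, against 8.57, 8.49 and 8.54 in NS siRNA and 8.61, 8.65 and 8.76 in mock. Nrf2 siRNA overlapped NS siRNA and lay below mock, by -0.06 ± 0.05 (SE, adjusted p = 0.398) and -0.20 ± 0.05 (adjusted p = 0.0118). Without mock replicate 3 the difference from mock was -0.16 and did not pass (adjusted p = 0.0564). The dimmest RARA probe set (below the median level) went the other way against mock, by 0.44 ± 0.11 (adjusted p = 0.00795), so the direction for RARA against mock depends on the probe set. Of the other 3, 1 fell against mock (-0.23 ± 0.07, adjusted p = 0.0261) and 2 did not pass.

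RARG, a receptor prominent in skin and other epithelia, fell slightly against NS siRNA. Its brightest probe set read 9.66, 9.73 and 9.72 in Nrf2 siRNA, against 9.88, 9.86 and 9.93 in NS siRNA and 9.80, 9.83 and 9.79 in mock. The Nrf2 siRNA arrays lay below all 6 controls, and RARG fell by 0.18 ± 0.05 (SE) against NS siRNA (adjusted p = 0.00585), while the difference of -0.10 ± 0.05 from mock did not pass (adjusted p = 0.119). The next brightest probe set also lay below all 6 controls and fell by 0.14 ± 0.05 against NS siRNA (adjusted p = 0.0429), and the third, below the median level, did not pass (-0.14 ± 0.05, adjusted p = 0.0509). With quantile normalization the difference of the brightest from mock was -0.13 and passed (adjusted p = 0.0456).

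RXRA, the shared partner of the RARs, had 2 probe sets that disagreed about the controls. The brighter read 10.23, 10.25 and 10.21 in Nrf2 siRNA, against 10.27, 10.29 and 10.23 in NS siRNA and 10.48, 10.42 and 10.36 in mock. It overlapped NS siRNA (-0.03 ± 0.05 SE, adjusted p = 0.592) and fell by 0.19 ± 0.05 against mock (adjusted p = 0.00773). The dimmer read 8.03, 8.0 and 8.07 in Nrf2 siRNA, against 8.45, 8.50 and 8.45 in NS siRNA and 8.30, 8.42 and 8.19 in mock. Here Nrf2 siRNA lay below all controls and fell by 0.43 ± 0.06 against NS siRNA (adjusted p = 5.49e-05) and by 0.27 ± 0.06 against mock (adjusted p = 0.00351). For NS siRNA against mock the 2 probe sets had opposite signs, -0.16 (adjusted p = 0.0254) and 0.16 (adjusted p = 0.06). The call of the brighter was lost without NS siRNA replicate 1 or 3 or mock replicate 1 or 2 (adjusted p = 0.0541 to 0.11).

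CRABP2, the carrier of retinoic acid to its receptors, showed no difference that passed. Its 1 probe set read 8.57, 8.50 and 8.53 in Nrf2 siRNA, against 8.57, 8.62 and 8.57 in NS siRNA and 8.57, 8.62 and 8.45 in mock. The groups overlapped, with -0.05 ± 0.05 (SE) against NS siRNA (adjusted p = 0.441) and -0.02 ± 0.05 against mock (adjusted p = 0.872).

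The 3 enzymes of the retinol and retinal step each had a pattern of its own. RDH10, which oxidises retinol to retinal, read 11.67, 11.67 and 11.72 in Nrf2 siRNA, against 10.91, 10.87 and 10.85 in NS siRNA and 10.93, 10.88 and 10.76 in mock. The 2 controls overlapped and Nrf2 siRNA lay above both. RDH10 rose by 0.81 ± 0.05 (SE) against NS siRNA and by 0.83 ± 0.05 against mock, or 1.76-fold and 1.78-fold (adjusted p = 7.19e-08 and 1.28e-07), and NS siRNA differed from mock by 0.02 ± 0.05 (adjusted p = 0.859). Its 2 next probe sets rose by 0.54 and 0.55 against NS siRNA and by 0.57 and 0.66 against mock, with all Nrf2 siRNA arrays above all controls. The fourth lay at 3.86 to 4.03 on every array, near the lowest values of the platform, and differed by -0.04 ± 0.05 and -0.03 ± 0.05.

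DHRS3, the reductase that returns retinal to retinol and a gene that retinoic acid induces, differed in NS siRNA. Its 1 probe set read 11.29, 11.24 and 11.14 in Nrf2 siRNA, against 10.36, 10.33 and 10.33 in NS siRNA and 11.11, 11.17 and 11.13 in mock. Nrf2 siRNA overlapped mock, and NS siRNA lay below both. DHRS3 rose by 0.88 ± 0.05 (SE) against NS siRNA, or 1.84-fold (adjusted p = 2.20e-08), but differed from mock by 0.08 ± 0.05 only (adjusted p = 0.255). NS siRNA fell by 0.80 ± 0.05 against mock (adjusted p = 1.80e-07).

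DHRS9, an enzyme that can oxidise retinol, showed the reverse. Its brightest probe set read 7.83, 7.65 and 7.80 in Nrf2 siRNA, against 8.06, 8.07 and 8.13 in NS siRNA and 7.79, 7.65 and 7.79 in mock. NS siRNA lay above both other groups, which overlapped. DHRS9 fell by 0.33 ± 0.06 (SE) against NS siRNA (adjusted p = 0.000689) and differed by 0.01 ± 0.06 from mock (adjusted p = 0.908), while NS siRNA was higher than mock by 0.34 ± 0.06 (adjusted p = 0.000962). The other 2 DHRS9 probe sets, dimmer and of the kind the maker marks as open to cross-hybridisation, fell by 0.27 and 0.21 against NS siRNA (adjusted p = 0.0141 and 0.029).

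By the brightest probe set of each of the 8 genes tested, RDH10 and RARB passed against both controls with 1 sign, RARA and RXRA against mock but not NS siRNA, RARG, DHRS3 and DHRS9 against NS siRNA but not mock, and CRABP2 against neither. The dimmer RXRA probe set, as given above, passed against both. The comparisons share arrays and the difference between the 2 controls was tested only as NS siRNA against mock. Over the 24 probe sets of these genes, 13 passed against NS siRNA, 4 higher and 9 lower, where 41.7% of all 41091 probe sets passed, 20.2% higher and 21.5% lower. Against mock 11 of 24 passed, 4 higher and 7 lower, beside 28.6% of all probe sets (15.2% higher, 13.3% lower), and 8 passed in NS siRNA against mock, 4 higher and 4 lower, beside 25.9% (12.4% higher, 13.5% lower). The median difference of the 24 was -0.10 against NS siRNA and -0.03 against mock, and that of all probe sets -0.04 and -0.01. In 3 of the 24 the Nrf2 siRNA arrays lay above all 6 controls and in 5 below them, beside 14.3% and 14.0% of all probe sets.

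**Figure D3:**
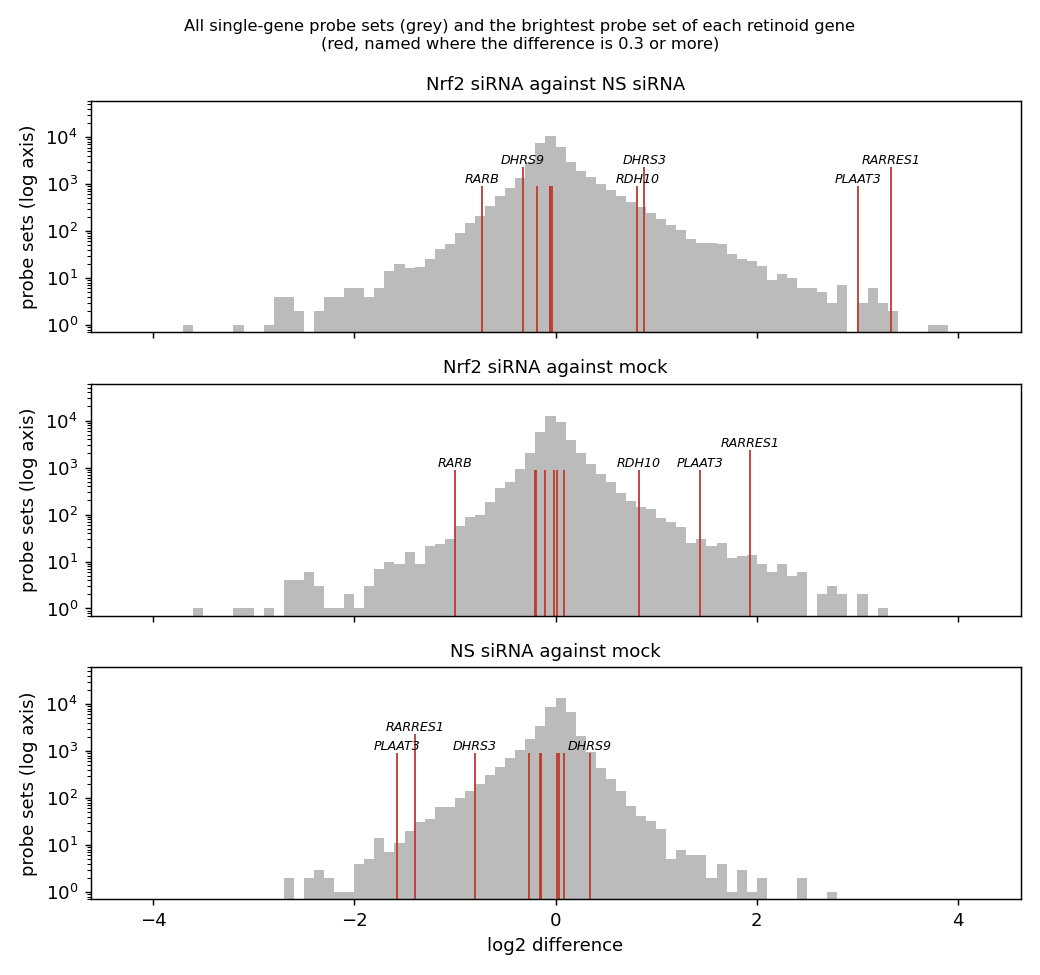
Number of probe sets (y axis, log scale) by log2 difference (x axis) over all 41091 single-gene probe sets, with the brightest probe set of each of the 10 genes in red, with 1 panel for each of the 3 comparisons. RARRES1 and PLAAT3 lie far right in the first panel (3.33 and 3.01) and left in the last (-1.40 and -1.57), while most receptor genes lie near the centre.

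The rest of the pathway was read from lists of retinoid receptors, carriers, enzymes and responders, 1 probe set a gene, the brightest. Of 57 listed genes other than the 10 above, 48 were measured. Against NS siRNA 11 of 48 rose and 14 fell, where 45.1% of all 19775 genes passed, 20.4% higher and 24.7% lower (median -0.06 for the list and -0.06 for all genes). Against mock 10 rose and 8 fell beside 31.1% of all genes (15.6% higher, 15.5% lower), and in NS siRNA against mock 10 rose and 9 fell beside 28.4% (14.1% higher, 14.3% lower). Calls in both directions were thus made in each of the 3 comparisons.

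Among the 2 other receptors, RXRG, a brain and muscle form that was dim here, fell by 0.19 ± 0.06 (SE) against NS siRNA (adjusted p = 0.0223), and RXRB differed by 0.03 ± 0.06. In uptake and binding 2 of 5 rose and 3 fell against NS siRNA, and 1 rose and 2 fell against mock. Over all genes 20.4% rose and 24.7% fell against NS siRNA, and 15.6% rose and 15.5% fell against mock. STRA6, the membrane receptor for the retinol carrier RBP4, read 10.76, 10.85 and 10.94 in Nrf2 siRNA, against 10.07, 9.94 and 10.05 in NS siRNA and 10.63, 10.73 and 10.60 in mock. By this probe set NS siRNA was the low group. STRA6 rose by 0.83 ± 0.06 against NS siRNA (adjusted p = 2.31e-07) and by 0.20 ± 0.06 against mock (adjusted p = 0.0294). Only 1 of its 3 probe sets was called against NS siRNA, and only 1, the brightest, was lower in NS siRNA than in mock. FABP5, a fatty acid carrier that also binds retinoic acid, read 12.32, 12.43 and 12.24 in Nrf2 siRNA, against 13.10, 13.16 and 13.10 in NS siRNA and 12.97, 13.06 and 13.00 in mock. It fell against both controls, by 0.79 ± 0.06 and 0.68 ± 0.06 (adjusted p = 1.83e-07 and 1.52e-06). RBP7, a cellular retinol carrier, fell by 0.48 against NS siRNA and by 0.17 against mock (adjusted p = 1.38e-05 and 0.0423). NS siRNA was the high group for RBP7, at 0.32 above mock (adjusted p = 0.000912). RBP4 rose by 0.22 against NS siRNA, although another RBP4 probe set was called in the opposite direction. Against mock the brightest RBP4 probe set had the other sign, -0.14, short of the threshold (adjusted p = 0.0505). There NS siRNA was the low group, at -0.36 against mock (adjusted p = 0.000143).

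Of 12 other retinol and retinal oxidoreductases 1 rose and 2 fell against NS siRNA, beside 20.4% and 24.7% of all genes. These were ADH1C by 0.22, and SDR16C5 and RDH16 by -0.32 and -0.20. Against mock 1 rose, ADH1C by 0.25, and 0 fell, beside 15.6% and 15.5%. SDR16C5 differed from mock by -0.10 (adjusted p = 0.211), and its NS siRNA level was 0.21 above mock (adjusted p = 0.0142). RDH11 differed from NS siRNA by 0.12 ± 0.05 (SE) and did not pass (adjusted p = 0.0725), although 1 of its other 3 probe sets was called higher. Of the 4 retinaldehyde dehydrogenases, ALDH1A1 was among the brightest transcripts, at 14.60 to 14.76 on every array, and differed by 0.01 ± 0.05 from NS siRNA. ALDH1A3, the other main retinoic acid-forming enzyme of epithelia, read 9.88, 9.80 and 9.81 in Nrf2 siRNA, against 10.06, 10.02 and 9.97 in NS siRNA and 8.53, 8.47 and 8.62 in mock. Both siRNA groups lay above mock: ALDH1A3 rose by 1.30 ± 0.05 in Nrf2 siRNA (adjusted p = 2.66e-09) and by 1.48 ± 0.05 in NS siRNA (adjusted p = 2.01e-09). It fell by 0.18 ± 0.05 in Nrf2 siRNA against NS siRNA (adjusted p = 0.0137). Only the brighter of the 2 ALDH1A3 probe sets was called in these comparisons, and the dimmer had the same signs. ALDH1A2 and ALDH8A1 passed in no comparison by their brightest probe set, although the other ALDH1A2 probe set was called lower against NS siRNA.

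The 2 measured retinoic acid hydroxylases stood high in NS siRNA. CYP26A1 read 8.28, 8.19 and 8.14 in Nrf2 siRNA, against 8.96, 8.83 and 8.88 in NS siRNA and 8.09, 8.15 and 8.17 in mock. CYP26B1 read 8.90, 9.10 and 9.13 in Nrf2 siRNA, against 9.55, 9.76 and 9.64 in NS siRNA and 9.02, 9.12 and 9.05 in mock. In both genes NS siRNA lay above the other groups, which overlapped. CYP26A1 fell by 0.69 ± 0.05 (SE) and CYP26B1 by 0.61 ± 0.07 against NS siRNA (adjusted p = 4.15e-07 and 1.38e-05), and they differed from mock by 0.07 ± 0.05 and -0.02 ± 0.07. NS siRNA exceeded mock by 0.76 and 0.59 (adjusted p = 5.51e-07 and 4.23e-05). Only the brighter of the 2 CYP26B1 probe sets was called in these comparisons, and the dimmer had the same signs. DHRS3 thus had its lowest values, and the CYP26 genes their highest, in the same 3 NS siRNA arrays. Among ester and carotenoid enzymes, BCO1, which cleaves beta-carotene to retinal, rose by 0.87 against NS siRNA and 0.58 against mock at a level below the array median, BCO2 rose by 0.20 against NS siRNA, and DGAT1, an acyltransferase, fell by 0.36 and 0.59 against the same controls. LRAT and RPE65 passed in no comparison.

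**Figure D4:**
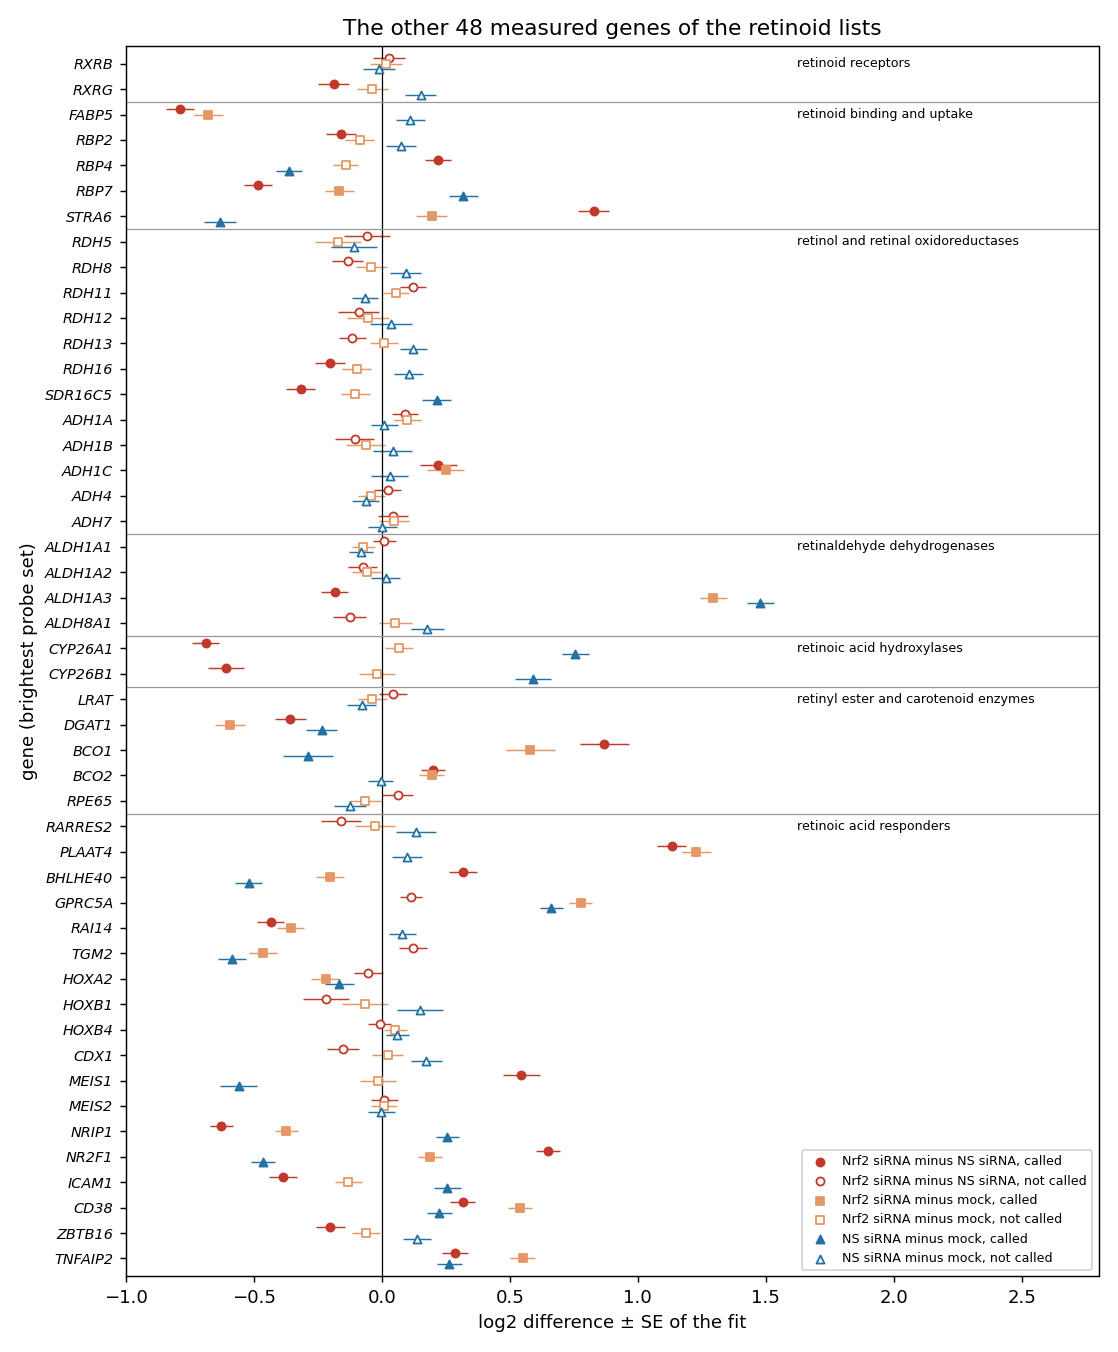
Log2 difference with the standard error of the fit (x axis) for the other 48 measured genes of the retinoid lists (y axis, brightest probe set), for the 3 comparisons; filled marks passed an adjusted p of 0.05 and open marks did not. ALDH1A3 lies right of 0 against mock in both siRNA groups, CYP26A1 and CYP26B1 lie on opposite sides in Nrf2 siRNA minus NS siRNA and in NS siRNA minus mock, and PLAAT4 lies at 1.13 and 1.23 against the 2 controls.

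Of 21 other retinoic acid responders 7 rose and 6 fell against NS siRNA, and 6 rose and 5 fell against mock, beside 45.1% and 31.1% of all genes called. In NS siRNA against mock 7 rose and 6 fell, beside 28.4% of all genes. PLAAT4 (RARRES3 in older annotation), a growth-inhibiting relative of PLAAT3, read 8.51, 8.59 and 8.49 in Nrf2 siRNA, against 7.38, 7.41 and 7.41 in NS siRNA and 7.41, 7.31 and 7.19 in mock. The controls overlapped and Nrf2 siRNA lay above both. PLAAT4 rose by 1.13 ± 0.06 (SE) against NS siRNA and 1.23 ± 0.06 against mock, or 2.19-fold and 2.34-fold (adjusted p = 8.82e-09 and 8.87e-09). NR2F1, an orphan receptor, rose by 0.65 against NS siRNA and 0.19 against mock, and NRIP1, a corepressor induced by retinoic acid, fell by 0.63 and 0.37. RARRES2, the chemerin gene, did not pass (-0.16 ± 0.08, adjusted p = 0.119).

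The sequence relatives of PLAAT3 and RARRES1 were few. LXN, latexin, a carboxypeptidase inhibitor related to RARRES1, read 13.77, 13.74 and 13.89 in Nrf2 siRNA, against 12.55, 12.59 and 12.54 in NS siRNA and 12.79, 12.60 and 12.60 in mock. Nrf2 siRNA lay above all 6 controls, and LXN rose by 1.24 ± 0.06 (SE) against NS siRNA and 1.14 ± 0.06 against mock (adjusted p = 6.70e-09 and 3.10e-08), with no call between the controls (-0.10 ± 0.06, adjusted p = 0.255). PLAAT2 rose by 0.23 and 0.18 against the same controls, with 1 of its 3 probe sets called, while PLAAT1 and PLAAT5 passed in no comparison by their brightest probe set; the other PLAAT1 probe set was called lower against both controls. With PLAAT4, 3 of these 5 relatives rose against each control; 20.4% and 15.6% of all genes rose against NS siRNA and mock.

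Receptor coregulators rose in 7 of 12 and fell in 1 against NS siRNA, and rose in 7 and fell in 2 against mock (medians 0.20 and 0.19, beside -0.06 and -0.02 over all genes). Of all genes 20.4% rose and 24.7% fell against NS siRNA, and 15.6% rose and 15.5% fell against mock. In NS siRNA against mock 1 coregulator rose and 3 fell, where 14.1% of all genes rose and 14.3% fell. TBL1XR1, a subunit of the NCOR corepressor complex, read 11.98, 12.05 and 12.12 in Nrf2 siRNA, against 10.50, 10.48 and 10.47 in NS siRNA and 11.87, 11.86 and 11.85 in mock. NS siRNA was the group apart: TBL1XR1 rose by 1.57 ± 0.05 (SE) against NS siRNA (adjusted p = 1.01e-10) and by 0.19 ± 0.05 against mock (adjusted p = 0.00844). The coactivators NCOA2 and CREBBP rose by 0.71 and 0.61 against NS siRNA and by 0.26 and 0.22 against mock. Of the 4 CREBBP probe sets 2 were higher and called against NS siRNA, and 1 was called higher against mock. Of 9 RXR partner receptors 5 rose against NS siRNA and the other 4 did not pass, and 3 rose and 2 fell against mock, beside the same shares of all genes. In NS siRNA against mock 5 of the 9 fell and the other 4 did not pass. THRB did not pass by its brightest probe set, but 2 of its 3 probe sets were called higher against NS siRNA and 2 against mock. NR4A2, an orphan receptor that pairs with RXR, rose by 1.95 ± 0.06 and 1.34 ± 0.06 against those controls (adjusted p = 8.63e-11 and 3.98e-09), THRA by 0.54 and 0.23 with 1 of its 4 probe sets called in the opposite direction against NS siRNA, and PPARA and PPARD by 0.48 and 0.25 against NS siRNA. Of the 9 PPARA probe sets 5 were higher against NS siRNA and 3 of them were called, and 1 was called higher against mock, though not the brightest; of the 4 PPARD probe sets 2 were called higher against NS siRNA.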

How the data were processed

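RNA purified with TRIZOL and RNeasy was biotin-labelled, as the labels' protocols state, and hybridised to 9 Affymetrix arrays of 54675 probe sets. What the authors deposited is a log2 level per probe set; the submitters' processing notes name RMA, which normalizes between arrays, and no source used here gives its version or settings. Detection calls and scan dates were not used here, so dim probe sets have no background test and no batch could be examined. All 9 columns were matched by sample accession.

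One linear model was fitted with limma 3.58.1 under R 4.3.3 (moderated by eBayes, 3 group means, 6 residual and 6.2 prior degrees of freedom) over the 41091 probe sets with exactly 1 gene; p-values are two-sided, adjusted by Benjamini-Hochberg over these, with a threshold of 0.05. An SD is over 3 arrays and an SE is the model's. Probe sets with several genes (1801), unnamed ones (11721) and controls (62) were left out. Symbols were updated by Entrez identifier through a RefSeq table of GRCh38.p14 (41037 matched). Lists used the probe set with the highest mean. The members, lists and motifs were chosen with earlier results of these data known, and the looser repeat was spelled out after the promoters had been seen.

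The named genes are all members, NFE2L2, from each list up to 4 genes with the lowest adjusted p for Nrf2 siRNA against NS siRNA, all genes of the receptor, dehydrogenase, hydroxylase and PLAAT lists, and the 5 genes most like RARRES1; RARRES2, LRAT and the keratins were added after their values were seen. Biological replicates are named in the titles, but whether they were separate cultures is not stated, so p-values measure the spread between these samples. The fit was tested on simulated arrays. Alternatives were other scalings, a filter on dim probe sets, other variance and sample choices, a block for replicate number, each array left out in turn, and other ways to choose a gene's probe set. Figures used matplotlib 3.10.9 in Python 3.11.15.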

Additional observations from a re-analysis of the deposited data

How the results depend on the processing

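No count of called probe sets or genes moved by more than 1.5 times under any alternative run. Leaving out 1 array in turn gave 14797 to 16970 called probe sets against NS siRNA (17148 with all arrays), 9814 to 11545 against mock (11744) and 8827 to 10912 for NS siRNA against mock (10648); the 24 probe sets of the tested members gave 10 to 13, 9 to 11 and 7 to 8, and the 48 other pathway genes 21 to 26, 14 to 19 and 16 to 21. Replicate numbers did not clearly pair the samples: 4 of 9 same-numbered pairs had a correlation of deviations above 0.1 (-0.174 to 0.186). Different-numbered pairs ran from -0.285 to 0.145. With the replicate block, 14 member probe sets passed against NS siRNA, 11 against mock and 8 for NS siRNA against mock, and 17508, 12046 and 10993 of all probe sets. Of 30 member differences, 16 kept their direction and side of the threshold (for RARRES1, which has no test, their size within the replicate spread) under all 17 alternatives. Another 5 did not pass under any of them but lay on both sides of 0: RARA against NS siRNA, CRABP2 and DHRS9 against mock, and CRABP2 and RDH10 for NS siRNA against mock. The other 9 differences changed mostly with the choice of probe set. The most variable probe set gave RARA 0.44 against mock (adjusted p = 0.0066) and 0.44 for NS siRNA against mock (adjusted p = 0.00809), and RXRA 0.16 for NS siRNA against mock (adjusted p = 0.0512) and -0.44 against NS siRNA (adjusted p = 4.54e-05). Averaging all probe sets of a gene gave RXRA 0.002 for NS siRNA against mock (adjusted p = 0.975) and -0.23 against NS siRNA, RARA -0.02 against mock, RARB -0.09 for NS siRNA against mock, and PLAAT3 2.11, 1.30 and -0.81 in the 3 comparisons. The RXRA call for NS siRNA against mock was also lost with quantile normalization and without NS siRNA replicate 1 or 3 or mock replicate 1 or 2 (adjusted p = 0.0541 to 0.11). RARA passed for NS siRNA against mock with equal array medians (adjusted p = 0.0446) and with dim probe sets left out (0.035). RXRG, SDR16C5, ADH1C, RBP7, BCO1 and the weaker RARB and DHRS9 probe sets lay below the median level, where the lack of a background test limits how firmly their differences can be read.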
